A study of Mus musculus with 6 samples.

Results

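Complement genes of the mouse aorta were examined in 6 RNA-seq libraries of whole vessel, 3 of wild-type animals and 3 of animals labelled EC-Jag1KO, in which the Notch ligand Jagged1 is deleted in endothelial cells. The 8 genes C1qa, C1qb, C1qc, C4b, C3, Cfb, Serping1 and Cd55 were chosen by their symbols from the 35275 genes of the deposited table, as the classical and alternative pathway components, C1 inhibitor and decay-accelerating factor. The labels used here name no Cre line, strain, age or sex, nor do they state that each library came from a separate animal. The p-values therefore measure the spread between these libraries, which may be technical in part. Replicate 3 of each group expressed Xist and lacked Y-linked transcripts, unlike replicates 1 and 2, so it came from a different animal than those. Values are FPKM, fragments assigned to a gene, divided by its length and by the depth of the library. Levels can thus be compared between libraries, and between genes where reads can be assigned to 1 gene.

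Complement is a cascade of plasma and tissue proteins that marks targets for uptake by phagocytes. The classical route starts when C1q binds a target and its proteases cleave C4 and C2, and the alternative route runs through factor B; both assemble enzymes, called convertases, that cleave C3. Most circulating complement is made by the liver, while C1q comes mainly from macrophages, and fibroblasts and other cells of the vessel wall make several components and their inhibitors locally.

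None of the 7 members that could be tested passed the adjusted threshold of 0.05 in limma, nor did any gene in the table (0 of 12165, 0%). By limma's voom on reads recovered from the values of the same libraries the members also gave 0 calls. In both fits 1 of the 7 members, C3, had an unadjusted p under 0.05, where 7.71% of all tested genes did in the first and 8.29% with voom. The member with the largest difference was C3, with 92.2 ± 15.6 FPKM in the wild-type group against 119 ± 12 FPKM in the EC-Jag1KO group (mean ± SD, 3 libraries each). The 3 C1q chains, C4b, Serping1 and Cd55 did not differ beyond the spread between libraries. Cfb was listed at 2 to 14 reads per library and was not tested.

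The RefSeq promoter table held 4 of the 8 members (C1qb, C1qc, C3 and Cd55). The sequences of C1qb and C1qc are shown because the C1q chains were above and below their own means in the same libraries. That of C3 is shown because it had the largest difference between the genotypes. They are the bases before the start site in GRCm38.p6 (the assembly called mm10 in genome browsers), 5′ to 3′ on the minus strand in which all of them are transcribed; for C1qc the window ends where an annotated exon begins. C1qb lies at chr4:136886201-136886450, C1qc at chr4:136893066-136893164 and C3 at chr17:57228137-57228386. Capitals mark matches, on either strand, to GAGGAA, a core recognised by the myeloid factor PU.1, and to TTGCNNAA, a form of the site of the C/EBP factors.
C1qb: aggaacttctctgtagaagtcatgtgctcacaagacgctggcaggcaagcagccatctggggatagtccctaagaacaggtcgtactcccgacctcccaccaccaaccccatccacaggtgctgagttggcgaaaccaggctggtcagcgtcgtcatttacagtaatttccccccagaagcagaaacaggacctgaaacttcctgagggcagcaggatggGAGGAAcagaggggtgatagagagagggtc
C1qc: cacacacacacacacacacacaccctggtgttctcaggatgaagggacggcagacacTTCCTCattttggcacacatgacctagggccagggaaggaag
C3: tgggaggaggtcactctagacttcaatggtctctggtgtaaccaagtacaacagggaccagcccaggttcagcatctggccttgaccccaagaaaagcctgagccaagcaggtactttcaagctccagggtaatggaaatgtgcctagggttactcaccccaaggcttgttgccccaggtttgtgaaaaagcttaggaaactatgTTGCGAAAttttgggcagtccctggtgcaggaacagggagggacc
The C1qb match begins 30 bases and the C1qc match 193 bases before the start site, the latter on the opposite strand and so printed as its reverse complement. The C3 match begins 45 bases before the start site. In windows of 250 bases before the start of 32851 RefSeq promoters, 23.25% hold GAGGAA and 9.56% hold TTGCNNAA. GAGGAA was found in 2 of the 4 members' windows and TTGCNNAA in 1. TTCNNNGAA, the form bound by STAT factors, and the interferon-stimulated response element were found in 0 of the 4 windows, against 7.02% and 2.98% of all promoters.

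Per unit of gene length, Serping1 was the most abundant member, with a mean of 328 FPKM over the 6 libraries. C3 followed at 106 FPKM, then C1qa at 47.2, C1qb at 37.3, C1qc at 30.8, C4b at 22.8, Cd55 at 3.14 and Cfb at 0.0780 FPKM. This order held in each of the 6 libraries taken alone. The place of Cfb is uncertain, since 79.5% of its exon bases are shared with another gene, as described below. The ranges of neighbouring genes over the libraries did not overlap between Serping1 and C3, C3 and C1qa, C4b and Cd55, or Cd55 and Cfb. The ranges of C1qa, C1qb, C1qc and C4b overlapped each other in turn, so for these genes the order holds within a library but the steps are smaller than the differences between libraries. The table's length for each member equals that of its longest GENCODE M21 transcript, which for Cd55 (3133 bases) is a form with a retained intron, so a level set against other genes depends on that choice.

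**Figure D1:**
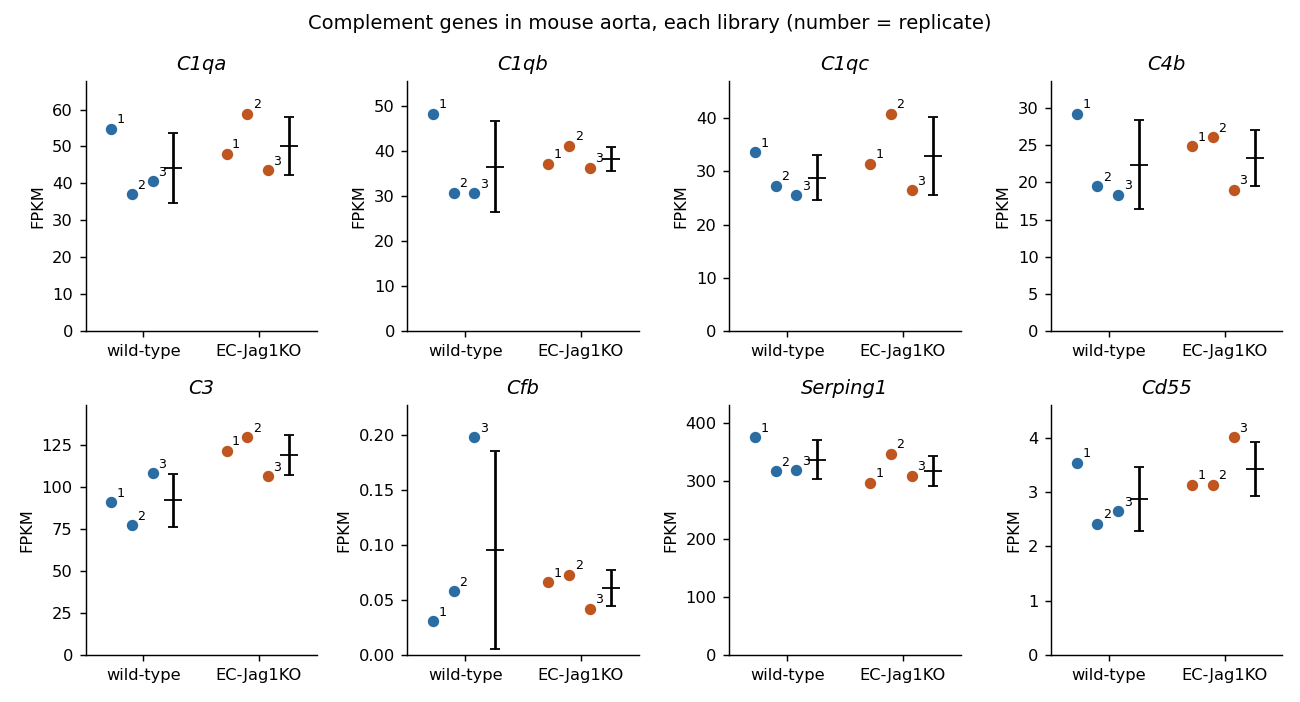
FPKM of each complement gene (vertical axes, from 0) in the 3 wild-type (blue) and 3 EC-Jag1KO (orange) libraries, with the replicate number beside each point and the mean ± SD as a bar. The groups overlap in all 8 genes, and C3 comes closest to separating, with a single wild-type library (replicate 3, 108 FPKM) above a single EC-Jag1KO library (replicate 3, 107 FPKM).

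C1qa, C1qb and C1qc encode the 3 chains of C1q, the recognition molecule of the classical pathway, and lie side by side on the minus strand of chromosome 4. C1qa (ENSMUSG00000036887, 136895917 to 136898803 in mm10) had 54.9, 37.0 and 40.7 FPKM in wild-type replicates 1, 2 and 3, against 48.1, 58.9 and 43.5 FPKM in replicates 1, 2 and 3 of EC-Jag1KO. The groups overlap, since wild-type replicate 1 was above EC-Jag1KO replicates 1 and 3. C1qb (ENSMUSG00000036905, 136880129 to 136886187) had 48.2, 30.7 and 30.6 FPKM in the wild-type libraries and 37.1, 41.1 and 36.2 FPKM in the EC-Jag1KO libraries. Its highest value of all was in wild-type replicate 1, while the other wild-type libraries were below all EC-Jag1KO libraries. C1qc (ENSMUSG00000036896, 136889804 to 136893065) had 33.6, 27.3 and 25.5 FPKM in the wild-type libraries and 31.4, 40.8 and 26.5 FPKM in the EC-Jag1KO libraries, with the highest value in EC-Jag1KO replicate 2.

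The log2 differences of the C1q chains between EC-Jag1KO and wild-type, on the log2(FPKM + 1) scale, were 0.19 with a standard error of 0.17 for C1qa, 0.093 with 0.18 for C1qb and 0.17 with 0.18 for C1qc. Their 95% intervals ran from -0.22 to 0.60, from -0.33 to 0.52 and from -0.24 to 0.59. The adjusted p in limma was 0.850, 0.934 and 0.866. These intervals include 0 and also include rises larger than the 0.38 estimated for C3, so the libraries do not separate a rise of that size from none. Within the groups the spread of C1qa was 21.3% of the mean in wild-type and 15.7% in EC-Jag1KO libraries. Counting error on its 968 to 1348 reads was 2.72% to 3.21% per library, so depth was not what limited the comparison.

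The 3 chains were above and below their own means in the same libraries, but their proportions varied. The root mean square difference of centred log2 levels was 0.11 between C1qa and C1qb and 0.098 between C1qa and C1qc. Between C1qb and C1qc it was 0.17, no smaller than the 0.16 between C1qb and Serping1. The ratio of C1qa to C1qb ranged from 1.14 to 1.43 over the 6 libraries and that of C1qc to C1qb from 0.696 to 0.994. C1qa over C1qb was 1.23 ± 0.10 in the wild-type and 1.31 ± 0.12 in the EC-Jag1KO libraries (n = 3 each), a difference smaller than the SD. The sum of the 3 chains was 137, 95.04 and 96.7 FPKM in the wild-type libraries and 117, 141 and 106 FPKM in the EC-Jag1KO libraries. It was high in wild-type replicate 1 and EC-Jag1KO replicates 1 and 2 and lower in the other 3, a division that crosses the genotypes.

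Macrophage markers were given the same treatment because macrophages are the main source of C1q, and the summed level of 12 of them (Lyz2, Mertk, Csf1r and 9 others; Adgre1, which encodes F4/80, was detected in every library) was 197 to 241 FPKM in the wild-type libraries and 216 to 254 FPKM in the EC-Jag1KO libraries. EC-Jag1KO replicate 3 had the highest macrophage sum (254 FPKM) of the 6 libraries, while its C1q sum (106 FPKM) was the lowest of the EC-Jag1KO libraries. Lyz2 was the largest part of the macrophage sum, with 129 FPKM in EC-Jag1KO replicate 3 and at most 106 FPKM in any other library. Single markers went in both directions, with a log2 difference of 0.35 for Cd68 and -0.33 for Mertk. The part of Lyz2 in the macrophage sum and in the values set against it was not tested. C1q summed over the macrophage sum was 0.508 ± 0.052 in the wild-type and 0.529 ± 0.105 in the EC-Jag1KO libraries, and lowest (0.419) in EC-Jag1KO replicate 3. With the macrophage level as a covariate, a setting chosen after seeing the data, the log2 differences were 0.11 for C1qa, -0.060 for C1qb and 0.15 for C1qc, each smaller than its standard error. In whole tissue, fewer cells of a type and less RNA per cell cannot be told apart.

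**Figure D2:**
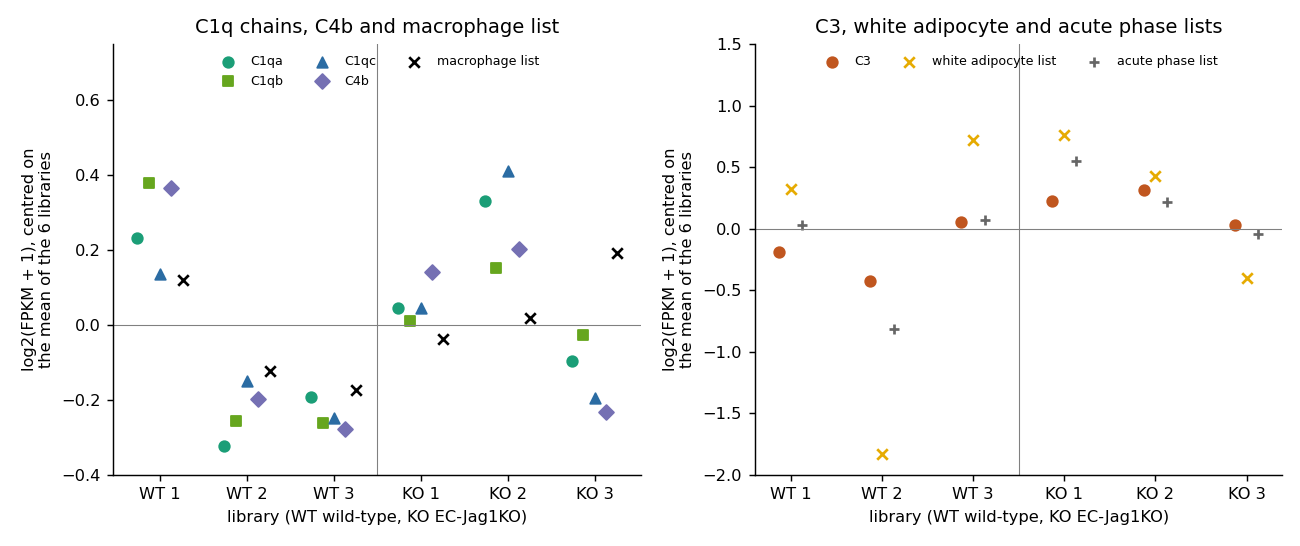
Levels in each library as log2(FPKM + 1), centred on the mean of the 6 libraries, for the C1q chains, C4b and the summed macrophage list (left) and for C3 and the summed white adipocyte and acute phase lists (right). On the left the C1q chains and C4b are above 0 in wild-type replicate 1 and EC-Jag1KO replicates 1 and 2 and below 0 in the other 3 libraries; on the right all 3 series are lowest in wild-type replicate 2.

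C4b encodes C4, which is cleaved by the C1 complex and forms part of the classical C3 convertase. C4b (ENSMUSG00000073418, minus strand of chromosome 17, 34728380 to 34743882 in mm10) had 29.2, 19.5 and 18.4 FPKM in the wild-type libraries and 24.9, 26.0 and 19.0 FPKM in the EC-Jag1KO libraries. High and low libraries were those of the C1q chains, and the EC-Jag1KO values all lay inside the wild-type range. The root mean square difference between the centred log2 levels of C4b and C1qb over the 6 libraries was 0.10, the smallest for C4b among the members. It was 0.12 to C1qa, 0.14 to C1qc, 0.19 to Serping1, 0.25 to Cd55, 0.29 to Cfb and 0.31 to C3. The log2 difference between the genotypes was 0.075, with a 95% interval from -0.39 to 0.54 and an adjusted p of 0.952 in limma. C4a, the neighbouring copy, had 0.109 to 0.347 FPKM, which was 0.588% to 1.31% of the reads of both genes. Of the stretches of 50 bases in the C4b transcript 35.2% are also in C4a, and of those of 100 bases 16.5%, so a part of C4b cannot be assigned to 1 gene by short reads, and the labels used here do not say how such reads were counted.

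C3 is the central component, on which the classical, lectin and alternative routes converge. C3 (ENSMUSG00000024164, minus strand of chromosome 17, 57203970 to 57228136 in mm10) had 91.0, 77.2 and 108 FPKM in the wild-type libraries and 122, 130 and 107 FPKM in the EC-Jag1KO libraries, on 9963 to 14298 reads each. EC-Jag1KO replicates 1 and 2 were above all wild-type libraries, and EC-Jag1KO replicate 3 was just below wild-type replicate 3. The log2 difference was 0.38 with a standard error of 0.15 and a 95% interval from 0.032 to 0.72, a fold of 1.30. The unadjusted p was 0.0361 and the adjusted p over all 12165 genes tested was 0.623 in limma, so C3 did not pass. C3 was the 1 tested member of 7 with an unadjusted p under 0.05, where 7.71% of all tested genes had one (4.25% higher and 3.46% lower in EC-Jag1KO).

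Wild-type replicate 3 and EC-Jag1KO replicate 3 were the libraries that expressed Xist and lacked the Y-linked transcripts, as in female animals, and they were the pair in which C3 did not differ. Without both of them the log2 difference of C3 was 0.58, with an adjusted p of 0.243 in limma. It was 0.26 without wild-type replicate 2, the library with the lowest C3, and its unadjusted p was then 0.126. The unadjusted p was also above 0.05 when another library was left out, at 0.0852 for wild-type replicate 1, 0.0906 for EC-Jag1KO replicate 1 and 0.101 for EC-Jag1KO replicate 2.

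Transcripts of adipocytes, which make C3 and surround the aorta, differed between the libraries. The summed level of 7 white adipocyte genes, of which Fabp4 and Adipoq were detected in every library, was 1225, 274 and 1612 FPKM in the wild-type libraries and 1658, 1313 and 742 FPKM in the EC-Jag1KO libraries. Fabp4 was the largest part of this sum, with 965, 206 and 1216 FPKM in the wild-type and 1274, 1035 and 519 FPKM in the EC-Jag1KO libraries. The summed level of 3 brown adipocyte genes was 214, 27.2 and 395 FPKM in the wild-type and 286, 168 and 193 FPKM in the EC-Jag1KO libraries. Wild-type replicate 2 had the lowest of both adipocyte sums and the lowest C3. Which kind of fat, or which other cells with Fabp4, these sums reflect was not tested. The 6 acute phase genes, led by Cebpd and Hp, summed to 167, 92.5 and 172 FPKM in the wild-type libraries and 241, 191 and 159 FPKM in the EC-Jag1KO libraries. With the summed level of the white adipocyte list as a covariate, chosen after seeing the data, the log2 difference of C3 was 0.29. Its standard error was 0.11 and its adjusted p 0.648 in limma. The part of the acute phase genes in the C3 difference was not tested. The summed level of 6 hepatocyte genes was 0.821 to 5.35 FPKM, and 5 of them averaged under 1 FPKM. Alb was at most 0.156 FPKM, and Apoa1 was listed at 0 in every library. The exception was Ttr, with 0.660, 0.261 and 4.44 FPKM in the wild-type and 1.46, 2.56 and 4.78 FPKM in the EC-Jag1KO libraries. Its log2 difference was 0.72 with a standard error of 0.56 and an adjusted p of 0.819 in limma. Which cells the Ttr reads came from was not tested.

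Cfb encodes factor B, the protease of the alternative pathway convertase. Cfb (ENSMUSG00000090231, minus strand of chromosome 17, 34856374 to 34862518 in mm10) had 2, 4 and 14 reads in wild-type and 4, 4 and 3 reads in EC-Jag1KO libraries, or 0.0308, 0.0579 and 0.198 FPKM against 0.0664, 0.0731 and 0.0421 FPKM. Of the 20 wild-type reads, 14 came from replicate 3. Summed over the libraries, the ratio of EC-Jag1KO to wild-type was 0.605, with an exact 95% interval from 0.262 to 1.32 that covers counting error only, so no difference was detectable at this depth.

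This count cannot be read as the level of the transcript. In GENCODE M21, 2246 of 2825 exon bases of Cfb (79.5%) also belong to Gm20547, a gene on the same strand that joins exons of C2 and Cfb. All 3902 exon bases of Gm20547 lie in exons of Cfb or C2, and Gm20547 was listed at 0 in all 6 libraries. A count that drops reads falling in more than 1 gene would leave Cfb only the remaining 579 bases. Had all its reads come from those bases, the level would be 0.146 to 0.941 FPKM. The labels used here do not say how such reads were counted, and their part in the low value was not tested. C2, the classical pathway counterpart of Cfb, shares 42.8% of its exon bases with Gm20547 on the same strand and had 0.526 to 1.56 FPKM.

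**Figure D3:**
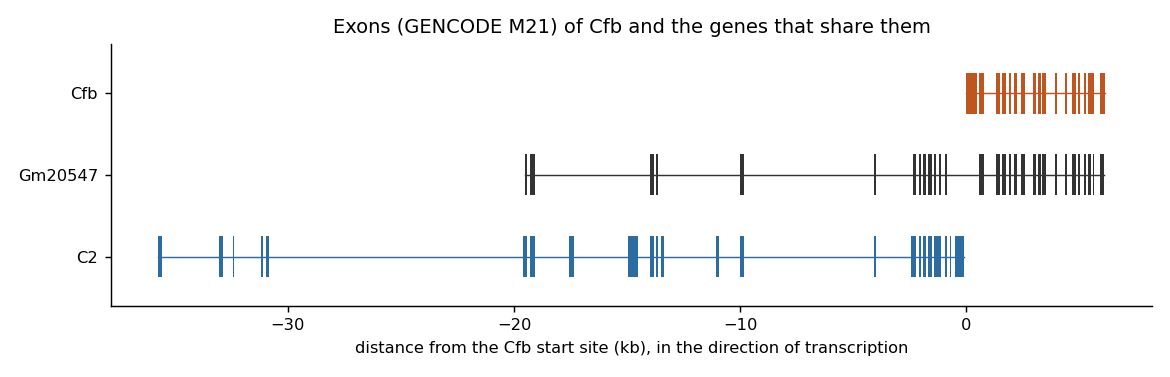
Exons (boxes) of Cfb, Gm20547 and C2 in GENCODE M21, plotted as distance in kilobases from the Cfb start site in the direction of transcription. Every exon base of Gm20547 lies in an exon of Cfb or C2, and outside the first exon few bases of Cfb are its own (579 of 2825 in all).

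Serping1 encodes C1 inhibitor, which inactivates the proteases of C1 and also plasma kallikrein. Serping1 (ENSMUSG00000023224, minus strand of chromosome 2, 84765387 to 84775444 in mm10) had 376, 317 and 319 FPKM in the wild-type libraries and 298, 348 and 309 FPKM in the EC-Jag1KO libraries. It varied least of the members, with a highest value 1.26 times the lowest, against 1.58 to 1.68 for the other 6 tested members. The log2 difference was -0.083, with a 95% interval from -0.38 to 0.21 and an adjusted p of 0.917 in limma. Serping1 was 2.47 to 3.34 times the sum of the C1q chains in these libraries. That ratio was 3.13 ± 0.33 in the wild-type and 2.64 ± 0.24 in the EC-Jag1KO libraries, and the groups overlapped.

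Cd55 encodes decay-accelerating factor, a membrane protein that takes convertases apart. Cd55 (ENSMUSG00000026399, minus strand of chromosome 1, 130439027 to 130462744 in mm10) had 3.54, 2.41 and 2.64 FPKM in the wild-type libraries and 3.13, 3.13 and 4.003 FPKM in the EC-Jag1KO libraries, on 190 to 325 reads. Wild-type replicate 1 was above EC-Jag1KO replicates 1 and 2, so the groups overlapped. The log2 difference was 0.20, with a 95% interval from -0.16 to 0.56 and an adjusted p of 0.811 in limma. Cd55b, the copy next to it, was listed at 0 in every library, and 10.7% of the 50-base stretches of the Cd55 transcript also occur in it. Counting error was 5.55% to 7.26% per library, below the spread of 20.8% in wild-type and 14.7% in EC-Jag1KO libraries.

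Over the members, 6 of the 7 tested had a higher mean log2 level in EC-Jag1KO and 1 (Serping1) a lower one, where 50% of all tested genes were higher. The groups overlapped in each of the 8 members, while 13.6% of all tested genes had groups that do not overlap. The median log2 difference of the 8 members, with Cfb at its untested value, was 0.13, against -0.00022 over all tested genes. All members were measured in the same libraries, so they cannot be counted as separate observations. Of the 6 higher members, 4 were above and below their own means in the same libraries, in part by small margins. C1qb, for example, was at 0.012 in EC-Jag1KO replicate 1 and -0.026 in EC-Jag1KO replicate 3 on the centred log2 scale. Their dependence was not tested. The summed level of 7 smooth muscle genes was 13930 to 14612 FPKM in the wild-type libraries and 11605 to 13829 FPKM in the EC-Jag1KO libraries, without overlap. Of these genes Myh11, Tagln, Smtn and Lmod1 were lower in every EC-Jag1KO library than in any wild-type library, and Myocd was higher. Acta2 and Cnn1 overlapped between the groups, with log2 differences of -0.13 and 0.10. None of the 7 smooth muscle genes passed in limma, where the lowest adjusted p was 0.402, for Smtn. The summed level of 5 erythroid genes was 740 to 1518 FPKM in the wild-type libraries and 190 to 918 FPKM in the EC-Jag1KO libraries, with overlap. The part of these levels in the complement values was not tested.

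**Figure D4:**
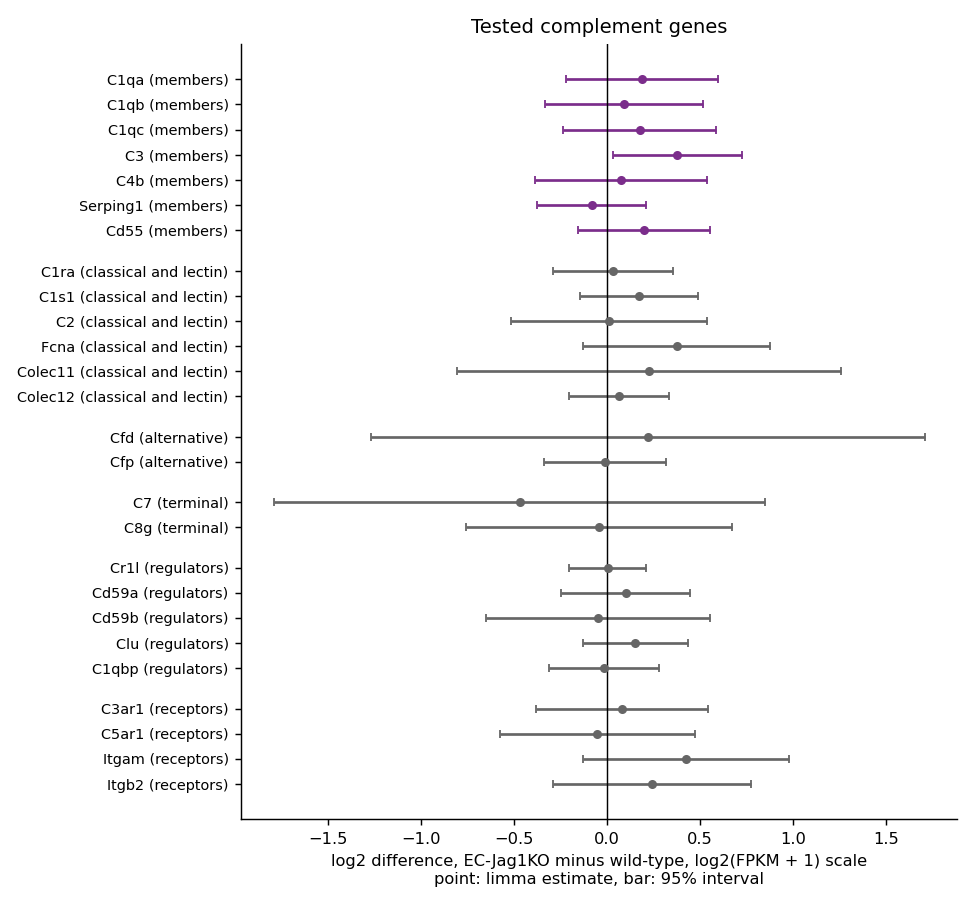
Log2 difference between EC-Jag1KO and wild-type on the log2(FPKM + 1) scale (horizontal axis) with its 95% interval from limma, for the 7 tested members (purple) and 19 of the 20 other tested complement genes (grey). The interval of C3 alone leaves out 0 (0.032 to 0.72), before any adjustment for the number of genes.

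Of 46 other genes of the complement system, 45 had 1 row in the table (Cr2 had 2 rows and was left out), and 20 of these reached the mean of 1 FPKM needed for the test. None passed, either at an adjusted p of 0.05 or at an unadjusted p of 0.05, in limma, and the lowest unadjusted p was 0.114. Of all tested genes, 7.71% had an unadjusted p under 0.05. A higher mean log2 level in EC-Jag1KO was seen in 14 and a lower one in 6, where 50% of all tested genes were higher. All 20 intervals included 0. In none of the 20 did the groups fail to overlap, while 13.6% of all tested genes had groups that do not overlap.

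Among genes of classical and lectin initiation, 6 of 15 were tested. All 6 lay higher, where 50% of all tested genes did, with log2 differences of 0.011 to 0.37. C1ra and C1s1, the proteases that act with C1q, had 38.7 ± 3.4 against 39.8 ± 6.8 FPKM and 27.9 ± 3.3 against 31.5 ± 4.2 FPKM (wild-type against EC-Jag1KO, n = 3 each). The scavenger receptor gene Colec12 had 76.2 ± 6.6 against 79.6 ± 7.9 FPKM, and the lectin gene Colec11 had a log2 difference of 0.23 with an interval from -0.81 to 1.26. The mannose-binding lectin genes Mbl1 and Mbl2 were listed at 0 throughout.

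Of the alternative pathway, Cfd, which encodes factor D and is known as adipsin from its expression in fat, had 302, 160 and 861 FPKM in the wild-type libraries and 615, 503 and 213 FPKM in the EC-Jag1KO libraries. Its low libraries, wild-type replicate 2 and EC-Jag1KO replicate 3, were those with the lowest white adipocyte sum (274 and 742 FPKM). Cfp, the properdin gene, was even across libraries, at 8.98 to 12.1 FPKM. In the terminal pathway 2 of 7 genes were tested. C7, a part of the membrane attack complex, had 86.5, 107 and 24.8 FPKM in the wild-type libraries and 50.2, 65.8 and 25.9 FPKM in the EC-Jag1KO libraries, lowest in the libraries that expressed Xist. C8g had a log2 difference of -0.043.

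Among 14 regulators, 6 were tested, 4 of them higher and 2 lower. Clu, which encodes clusterin, had the highest mean of the complement genes over the 6 libraries, although Cfd was above it in wild-type replicate 3 (861 against 611 FPKM). Clu had 575 ± 32 FPKM in the wild-type group against 640 ± 42 FPKM in the EC-Jag1KO group. Cr1l, the rodent convertase inhibitor Crry, had 42.4 ± 0.9 against 42.5 ± 2.4 FPKM. The membrane attack inhibitor gene Cd59a had a log2 difference of 0.099. The 95% interval of Cr1l, from -0.21 to 0.21, was the narrowest of the 27 tested complement genes.

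Of 7 receptor genes, 4 were tested, all of them with mean levels under 3 FPKM. The integrin genes Itgam and Itgb2, whose products form complement receptor 3, had log2 differences of 0.42 and 0.24, and the anaphylatoxin receptor genes C3ar1 and C5ar1 had 0.080 and -0.054. Itgam stood at 4.39 FPKM in EC-Jag1KO replicate 3 and at 1.58 to 2.36 FPKM in the other 5 libraries, and the summed level of 6 neutrophil genes was 80.3 FPKM in that library and 0.623 to 11.2 FPKM in the others. The part of neutrophils in the Itgam value was not tested. Itgam shares 68.7% of its exon bases with Gm49368.

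Genes whose pattern over the 6 libraries was most like that of the members were ranked by the root mean square difference of centred log2(FPKM + 1) among tested protein-coding genes. For the mean of the C1q chains these were Ifit1 (0.039), Papss2 (0.052) and Nkain4 (0.064), where the median of all candidates was 0.27. Ifit1, an interferon-induced gene, was at 0.839 to 1.70 FPKM. For C3 they were Foxred1 (0.060), Cryz (0.064) and Nkain1 (0.067), for C4b Med21 (0.074), Nmnat1 (0.091) and Ormdl2 (0.091), for Serping1 Il16 (0.028), Golga5 (0.041) and Gskip (0.041), and for Cd55 Gtdc1 (0.038), Lyn (0.044) and Sh3glb1 (0.046). The number of libraries is 6, and no test was made of these likenesses.

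The whole series bears on these values as follows. Jag1 had 9.86, 10.6 and 16.9 FPKM in the wild-type libraries and 13.5, 9.42 and 19.6 FPKM in the EC-Jag1KO libraries; other cells of the wall also make it, so whole-aorta RNA does not check an endothelial deletion. The markers of smooth muscle and of endothelium, the latter with a sum of 276 to 399 FPKM, were all detected, as the tissue label requires. Depth was 19889910 to 25914325 reads in genes per library.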

How the data were processed

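The authors deposited 1 table of FPKM values, 1 column per library, with gene coordinates and lengths per the file headers. Tools the authors listed, per the submitters' processing notes, were STAR, HTSeq and edgeR, with mm10 as the build and neither roles nor versions; annotation release, strand setting and the treatment of reads in more than 1 gene were not stated. Members of the 8 and all gene lists were chosen with earlier results of these data known.

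Values were analysed as log2(FPKM + 1), so differences understate the change of low genes. The 12165 genes averaging 1 FPKM or more entered a two-sided limma test (limma 3.58.1, R 4.3.3) with genotype alone, an intensity trend in the variance, and Benjamini-Hochberg adjustment over all of them. All 8 members are named. Other complement genes are named if their unadjusted p was under 0.05, otherwise up to 4 of the highest level in each list. Of these, 1 gene is left unreported. Outside this rule, C2, C4a, Cd55b, Mbl1, Mbl2, Cr2, Gm20547, Cfi and C5ar2 were named after their values were seen.

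Every one of 211650 values was within 0.05 of a whole number of reads, so reads were recovered from the FPKM steps. They give the counting error, and limma's voom on them, scaled by depth, was an alternative added after seeing the data; the planned version with TMM scaling is not reported. The test was checked on simulated data. Exon sharing was taken from GENCODE M21, which has the same coordinates for 24919 of 34490 matched genes and for all 8 members. Promoters came from RefSeq (GRCm38.p6). Plots used matplotlib 3.10.9. Alternatives were the pseudocount, filter, scaling, trend, voom, the replicate number, sex, each library left out, and, added after seeing the data, adipocyte and macrophage levels as covariates.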

Additional observations from a re-analysis of the deposited data

How the results depend on the processing

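The 7 tested members and the 20 other tested complement genes gave 0 calls at an adjusted p of 0.05 in limma in each of the 18 alternatives. At an unadjusted p under 0.05, C3 passed in 13 of 18 and C1qb in 1 of 18 (without wild-type replicate 1). The share of all tested genes under that threshold was 4.52% to 11.8% over the alternatives, which reuse the same libraries. Of the other complement genes, 3 passed that unadjusted threshold without the 2 libraries that express Xist, where 11.1% of all genes tested did. With no filter on low values 1 passed, against 6.29% of all genes. Leaving out wild-type replicate 1 or 3 also gave 1 each, against 6.23% and 7.37% of all genes. In the other alternatives the count was 0. The log2 difference of C3 ranged from 0.26 to 0.58 over the 18 alternatives, with a lowest adjusted p of 0.243, and it kept its direction in all of them, as did C1qa, C1qc and Serping1, and Cd55 in the 17 that could be run. The median over the members ranged from 0.021 to 0.30. C1qb changed sign without wild-type replicate 2 (-0.012) or wild-type replicate 3 (-0.015) and with the macrophage level as a covariate (-0.060). C4b did so without wild-type replicate 2 (-0.0054), wild-type replicate 3 (-0.046) or EC-Jag1KO replicate 2 (-0.0079) and with the macrophage covariate (-0.0089). Without wild-type replicate 1 the differences were 0.31 for C1qb and 0.28 for C4b. The cause was not tested.

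Over all genes, 0 passed, and the count was 1 with sex as a covariate, 2 without the 2 libraries that express Xist, and 0 to 4 when each library was left out, with 4 without EC-Jag1KO replicate 1; no complement gene was among them. Same-numbered libraries of the genotypes deviated together little (correlations across genes of 0.055, 0.051 and -0.050), so the numbers were not taken as pairs; with the replicate number as a block 0 genes passed, and C3 had a log2 difference of 0.38 and an adjusted p of 0.740. The planned voom fit with TMM scaling is not reported, and depth scaling took its place. Cfb could not be fitted under the filters on low values, and Cd55 was left out at a mean of at least 5 FPKM. Cfb and 25 other complement genes averaged below 1 FPKM and were not tested. Of those 25, 4 were listed at 0 in every library. The part of depth, and for Cfb of its shared exons, in these low values was not tested.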

Other observations

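Cfi, which encodes factor I, the protease that inactivates C3b and C4b, was below the level needed for the test and was singled out after its values were seen. It had 1, 3 and 2 reads in wild-type and 11, 6 and 20 reads in EC-Jag1KO libraries, so the groups did not overlap. The ratio of reads per depth was 6.78, with an exact 95% interval from 2.84 to 19.7 that covers counting error only. Without the filter on low values its unadjusted p was 0.00844 and its adjusted p 0.615 in limma. C5ar2, the second receptor for C5a, was the other untested complement gene whose groups did not overlap, with 64, 39 and 28 reads in wild-type and 20, 18 and 24 reads in EC-Jag1KO libraries. Its ratio was 0.521, from 0.378 to 0.709 by counting error alone, and its adjusted p without the filter was 0.813 in limma. Both of these are picked from 25 untested genes, and 13.6% of all tested genes have groups that do not overlap.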
